A study of Mus musculus with 9 samples.

Results

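Ccl2, Ccl7, Ccl8, Ccl11, Ccl19 and Ccl20 are 6 genes of the CC chemokine family. They were found by symbol in a table of 13336 genes, and all 6 were present. The table comes from mouse tracheal gland cells of 2 genotypes, one with a knock-in of Lef-1 (Lef1KI, 5 libraries) and one with the ROSA-TG reporter (WT, 4 libraries). The genes were selected on the same measured values, since earlier results of this Lef1KI against WT comparison had shown them higher in Lef1KI. Their differences between the groups are therefore given as a description, with no test. The table holds 10 CC chemokine ligand genes of the 24 looked for, so 4 ligands stand beside the 6.

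Both groups carried ACTA2-CreERT2, a Cre recombinase that tamoxifen switches on in cells using the promoter of Acta2, the smooth muscle actin gene of myoepithelial cells. Mice had received tamoxifen on each of 5 days, and gland cells of 3 to 5 mice were pooled for a library. At passage 1 the cells were sorted from cultures on laminin-treated plastic. Their modified SAGM medium held Y-27632 at 10 µM and DMH-1, A83-01 and CHIR 99021 at 1 µM each. These last compounds inhibit BMP receptors, TGF-beta receptors and the kinase GSK3. Inhibition of GSK3 activates Wnt/beta-catenin signalling, the pathway Lef1 serves, and both groups received it. WT cells were sorted as GFP-positive (genotype ACTA2-CreERT2:ROSA-TG) and Lef1KI cells as GFP-negative (ACTA2-CreERT2:Lef-1KI+/+). The sorting gate and the genotype thus change together in every library and cannot be told apart. Lef1, the transcription factor the knock-in supplies, ranged from 139 to 312 TPM (transcript abundance scaled for transcript length and library size) over the 5 Lef1KI libraries and from 0.38 to 0.55 TPM over WT (exact two-sided permutation p 0.0159, the smallest that 126 splits allow).

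Chemokines are small secreted proteins that bind G-protein-coupled receptors on leukocytes and set the direction in which those cells migrate. Ccl2 and Ccl7 attract monocytes through the receptor Ccr2, Ccl8 acts on monocytes and T cells and in mice uses Ccr8, and Ccl11 (eotaxin) attracts eosinophils through Ccr3. Ccl19 guides Ccr7-bearing T cells and dendritic cells within lymphoid tissue, and Ccl20 attracts Ccr6-bearing lymphocytes and immature dendritic cells to epithelia. In many tissues fibroblasts and endothelium are sources of the first group. Stromal cells of lymphoid organs are a known source of Ccl19, and epithelium is a known source of Ccl20. Many chemokine genes are induced by interleukin-1 and tumour necrosis factor through the transcription factor NF-kB.

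Of the genes, 4 are close neighbours. On mm10 (GENCODE M21) Ccl2 lies on chromosome 11 from 82035571 to 82037453, Ccl7 from 82045712 to 82047525, Ccl11 from 82057823 to 82062955 and Ccl8 from 82115185 to 82116799, all on the plus strand. From the start of Ccl2 to the end of Ccl8 the stretch measures 81.2 kb and holds 5 annotated genes, the fifth being Ccl12, which is not in the table. Ccl19 lies on chromosome 4 from 42754525 to 42756577 on the minus strand, and Ccl20 on chromosome 1 from 83116766 to 83119167 on the plus strand. In the order Ccl2, Ccl7, Ccl11, Ccl8, Ccl19 and Ccl20 their Ensembl identifiers are ENSMUSG00000035385, ENSMUSG00000035373, ENSMUSG00000020676, ENSMUSG00000009185, ENSMUSG00000071005 and ENSMUSG00000026166. The coding sequences of Ccl7, Ccl8 and Ccl11 are 294 bases long each, and that of Ccl2 is 447 bases. Over aligned bases, gaps left out, these 4 neighbours were 64.3% to 69.4% identical to each other, against 54.7% to 60.5% for pairs in which Ccl19 or Ccl20 took part. With gaps counted, pairs with Ccl19 or Ccl20 had 40.7% to 51.9%. The longer Ccl2 then fell within that range against its neighbours (43.9% to 45.6%), while Ccl7, Ccl8 and Ccl11 had 63% to 66.3% among themselves. None of the 5 other genes had another gene's transcript at 90% identity or more over 100 bases, whereas Ccl19 had 4 such copies, described with its values.

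Upstream sequence is shown for a pair of genes, Ccl8 because it had the widest difference on the log2 scale and Ccl20 because it ordered the Lef1KI libraries unlike the others. Each run below is the 250 bases before the start site, 5′ to 3′ on the gene's own strand, from RefSeq on GRCm38.p6. They span chr11:82114935-82115184 and chr1:83116516-83116765. Capitals mark letters that match a searched motif on either strand: in Ccl8 a LEF/TCF core (CTTTGAA, here on the opposite strand) and a TATA box (TATAAA), and in Ccl20 a run of overlapping NF-kB matches (GGGNNNNNCC).
Ccl8: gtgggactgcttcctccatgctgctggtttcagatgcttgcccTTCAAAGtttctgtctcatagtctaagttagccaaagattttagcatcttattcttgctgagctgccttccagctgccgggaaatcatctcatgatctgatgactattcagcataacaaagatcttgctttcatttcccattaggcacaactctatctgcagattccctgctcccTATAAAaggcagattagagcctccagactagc
Ccl20: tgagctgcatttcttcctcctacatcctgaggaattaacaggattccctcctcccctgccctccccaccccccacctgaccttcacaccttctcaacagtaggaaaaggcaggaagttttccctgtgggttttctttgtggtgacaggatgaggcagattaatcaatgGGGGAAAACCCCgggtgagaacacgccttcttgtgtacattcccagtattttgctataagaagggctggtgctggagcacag

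The LEF/TCF match of Ccl8 begins 207 bases before the start, and the NF-kB run of Ccl20 begins 82 bases before it. Of 27025 promoters searched over the same length, 4.64% held CTTTGAA, 13% held TATAAA and 45.4% held GGGNNNNNCC, so the last pattern is common. The window of Ccl19 held 1 match to GGGNNNNNCC, but 212 of its 250 bases lie within the annotated gene, so most of it is not upstream of that gene's outermost start and it is not shown. The canonical LEF/TCF core CTTTGAT (3.23% of promoters) and the AP-1 pattern TGANTCA (6.87%) were also searched and had no match in these 3 windows. Other forms of the LEF/TCF core were not searched, so 4.64% is not the share of promoters with any form. A match here is a description of letters and was not tied to any factor's binding.

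Ccl2 was the most abundant of the 6 genes in both groups. It had 102.85, 122.47, 224.43, 119.66 and 156.98 TPM in Lef1KI libraries A to E; its WT values were 76.60 TPM in A, 41.66 in B, 24.83 in D and 21.97 in E. Every Lef1KI library lay above every WT library, but the highest WT library and the lowest Lef1KI library were only 1.34 times apart. The group means were 145 ± 48.4 TPM (SD, n = 5) and 41.3 ± 25.1 TPM (SD, n = 4), a 3.52-fold ratio. On the log2(TPM + 1) scale of the deposited values the difference was 1.91 (SE 0.345).

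Ccl7, the nearest neighbour of Ccl2 and a ligand of the same receptor, had 32.42, 25.50, 78.17, 32.60 and 26.36 TPM in Lef1KI A to E; its WT values were 11.93 TPM in A, 7.19 in B, 8.87 in D and 5.58 in E. The groups did not overlap, and Lef1KI C stood well above the other 4 Lef1KI libraries. The means were 39.0 ± 22.1 and 8.39 ± 2.71 TPM, a ratio of 4.65, and the log2 difference was 2.001 (SE 0.319). Without Lef1KI C the log2 difference was 1.72.

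Ccl8 showed the widest log2 difference of the 6 genes. Its Lef1KI libraries A to E had 39.86, 25.42, 65.20, 45.31 and 12.98 TPM; its WT values were 2.54 TPM in A, 3.13 in B, 5.73 in D and 1.66 in E. The groups did not overlap, although values within Lef1KI spread 5.02-fold. The means of 37.8 ± 19.9 and 3.27 ± 1.75 TPM gave a ratio of 11.6, and the log2 difference was 3.09 (SE 0.42).

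Ccl11, the eotaxin gene, was barely detected in WT. It had 4.16, 4.81, 14.36, 7.61 and 2.66 TPM in Lef1KI A to E; its WT values were 0.54 TPM in A, 0.23 in B, 0.35 in D and 0.14 in E. The groups did not overlap, and the gap between them, 4.93-fold from the highest WT to the lowest Lef1KI library, was the widest of the 6 genes. The means were 6.72 ± 4.63 and 0.315 ± 0.173 TPM. Their ratio of 21.3 is also the largest of the 6, while the log2 difference of 2.38 (SE 0.346) ranks second because the pseudocount of 1 TPM compresses values near 0. With a pseudocount of 0.1 the difference was 3.89. Every gene of the table has, in one group or the other, a mean log2 value of 3 SD or more. Ccl11 met that filter only in Lef1KI (3.49 SD against 2.07 SD in WT), and the other 5 genes met it in both groups.

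**Figure D1:**
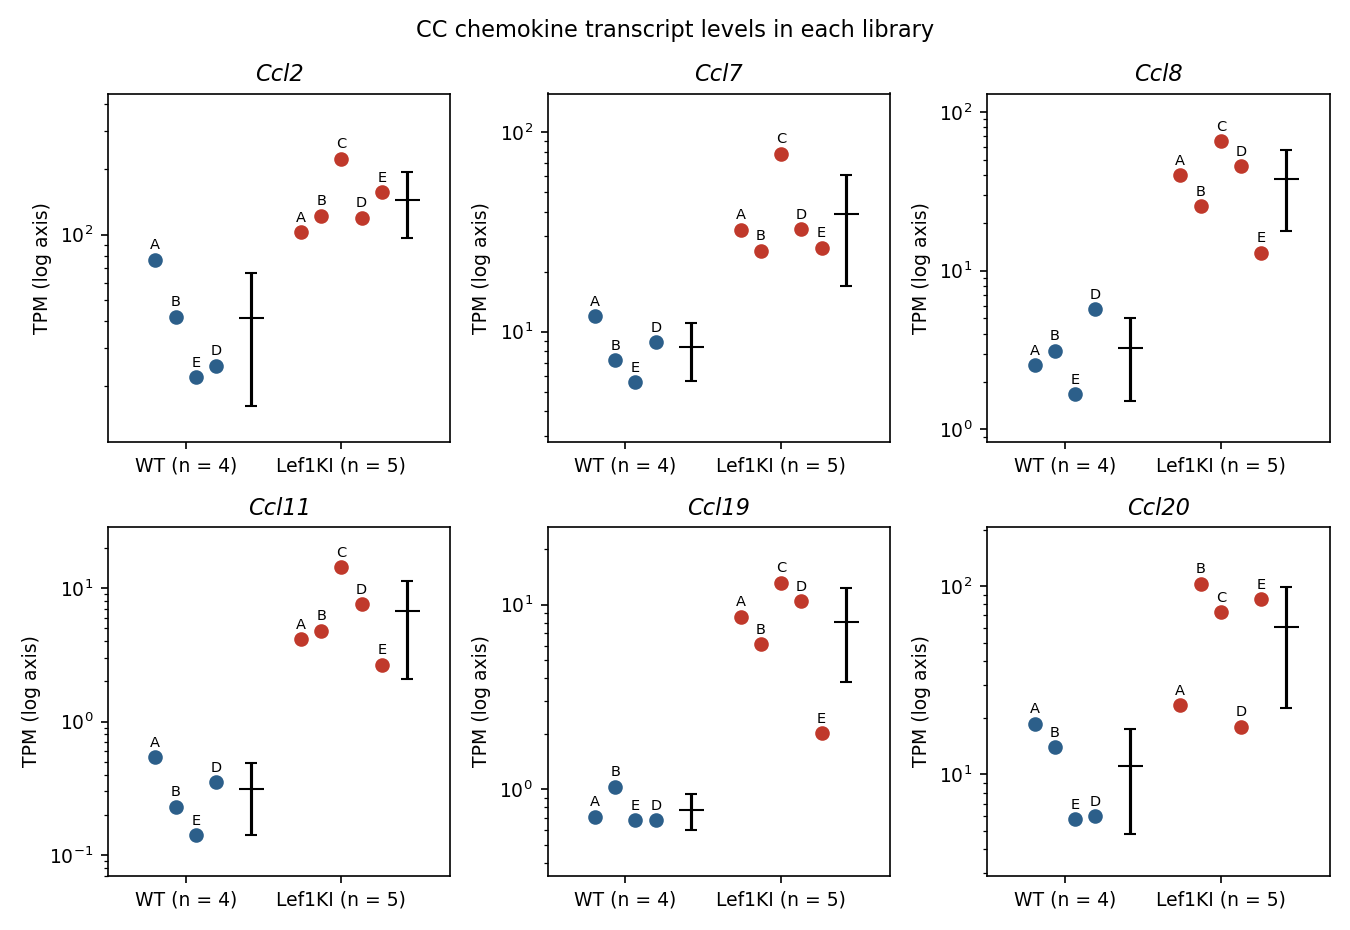
Transcript level (TPM, log axis, own range per gene) of the 6 genes in each library, WT in blue and Lef1KI in red, with the library letter above each point; the bar beside each group is its mean ± SD. Only Ccl20 overlaps between groups (WT A at 18.57 TPM, Lef1KI D at 17.96 TPM), and Lef1KI E is the lowest Lef1KI library for Ccl8, Ccl11 and Ccl19.

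Ccl19, the lymphoid-tissue chemokine, had 8.60, 6.09, 13.18, 10.44 and 2.01 TPM in Lef1KI A to E; its WT values were 0.71 TPM in A, 1.03 in B, 0.68 in D and 0.68 in E. WT values were tightly grouped near 1 TPM, and the lowest Lef1KI library, E, lay 1.95-fold above the highest WT library. The means were 8.06 ± 4.26 and 0.775 ± 0.171 TPM, a ratio of 10.4, with a log2 difference of 2.18 (SE 0.376) that became 3.003 with a pseudocount of 0.1. These values are uncertain in one respect, because mouse chromosome 4 carries near-identical copies among which reads could be divided. The protein-coding copy Gm2564 (42629719 to 42631714, plus strand) matched the Ccl19 transcript at 98.9% over 707 of its 745 bases. The pseudogenes Ccl19-ps3, Gm12407 and Ccl19-ps1 matched it at 99.1% or more over 324 or 325 bases and are not in the table.

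Gm2564 is in the table and was inspected only because of this match. It had 3.72, 5.28, 6.25, 5.47 and 2.45 TPM in Lef1KI A to E; its WT values were 0.21 TPM in A, 0.21 in B, 0.25 in D and 0.15 in E. Ccl19 and its copy were thus both higher in every Lef1KI library than in any WT library, and both were lowest in Lef1KI E and highest in Lef1KI C. Their sum was 12.7 ± 5.60 TPM in Lef1KI against 0.980 ± 0.179 in WT, and the log2 difference was 2.67. Reads that match both could have been divided between Ccl19 and the copy, so these are not independent readings of a higher level in Lef1KI.

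Ccl20, the epithelial chemokine, had 23.36, 103.17, 73.02, 17.96 and 85.58 TPM in Lef1KI A to E; its WT values were 18.57 TPM in A, 14.00 in B, 6.02 in D and 5.80 in E. The Lef1KI libraries fell apart into B, C and E at 73 TPM or more and A and D near the WT values, so the groups overlapped: Lef1KI D lay just below WT A. The means were 60.6 ± 38.1 and 11.1 ± 6.27 TPM, a ratio of 5.46, and the log2 difference of 2.20 had the largest SE of the 6 genes (0.545).

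For 5 of the 6 genes no WT library reached a Lef1KI library, and 11.9% of all 13336 genes did not overlap between the groups in either direction. Because this contrast chose the 6 genes, nothing is read from that count. For the gene lists described further on, the background is that 6.73% of all genes rose in Lef1KI and 1.24% fell (limma adjusted p under 0.05). Some genes of these lists met the 3 SD filter only in the group where they were higher, so the list counts are not free of that selection. Over all genes the median of the log2 differences came to 0.141, and to −0.018 with each library centred on its median. The 6 differences were then 1.75 (Ccl2), 1.84 (Ccl7), 2.93 (Ccl8), 2.22 (Ccl11), 2.02 (Ccl19) and 2.04 (Ccl20).

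Ordered by mean TPM, which is scaled to transcript length, the genes ran Ccl2, Ccl20, Ccl7, Ccl8, Ccl19 and Ccl11 in both groups. In Lef1KI, Ccl20 and Ccl7, Ccl7 and Ccl8, and Ccl19 and Ccl11 had means closer than the larger SD of the pair, and in WT only Ccl20 and Ccl7 did. Ccl2 alone made up 42.6% to 54.8% of the summed TPM of the 6 genes in Lef1KI libraries and 53.4% to 69.1% in WT libraries. Their sum was 211 to 468 TPM in Lef1KI and 35.8 to 111 TPM in WT. Against all genes of the table, the mean of Ccl2 stood at the 93.4th percentile in Lef1KI and the 78.6th in WT, while Ccl11 stood at the 32.8th and the 4.6th.

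**Figure D2:**
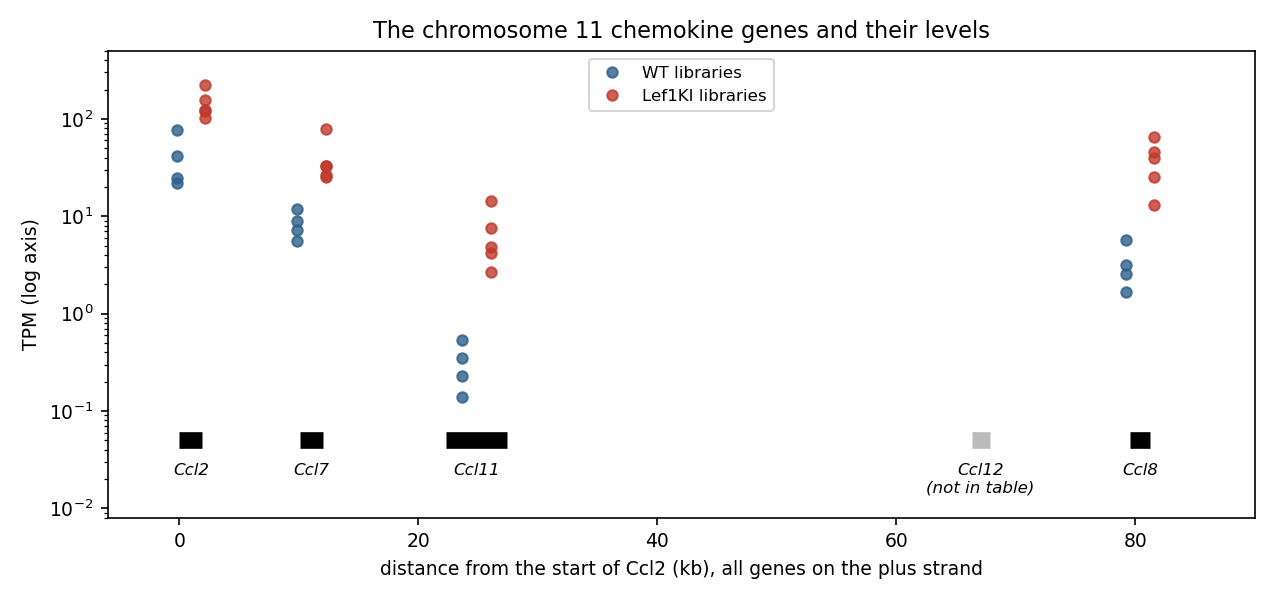
TPM (log axis) of Ccl2, Ccl7, Ccl11 and Ccl8 in each WT (blue) and Lef1KI (red) library, drawn above the position of each gene as distance in kb from the start of Ccl2; black boxes are the gene bodies and the grey box is Ccl12, which is not in the table. The 4 measured neighbours are higher in all Lef1KI libraries than in all WT libraries, at levels that fall from Ccl2 to Ccl11 and are higher again at Ccl8.

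Within the Lef1KI group, which the choice of genes does not fix, the genes varied in more than one way. Ccl8 and Ccl19 put the 5 libraries in the same order, C, D, A, B, E, from highest to lowest. Ccl11 had the order C, D, B, A, E and Ccl7 the order C, D, A, E, B. The deviations of Ccl8 and Ccl19 from their Lef1KI means differed by a root mean square of only 0.123 log2 units over the 5 libraries, the smallest of the pairs among the 6 genes. Ccl20 had the order B, E, C, A, D, and its distances were the largest: 1.52 from Ccl8 and 1.54 from Ccl19. Ccl2 lay between, with C highest and then E, B, D and A, at 0.378 from Ccl7 and 0.861 from Ccl20. In Lef1KI E, for instance, Ccl20 was at 85.58 TPM, its second highest value, while Ccl8, Ccl11 and Ccl19 were each at their Lef1KI minimum.

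In WT the pairing was different. Ccl2 and Ccl20 shared the order A, B, D, E, at a root mean square distance of 0.179 over 4 libraries. Ccl7 and Ccl11 shared A, D, B, E, and Ccl8 was highest in WT D. WT A was the highest library for Ccl2, Ccl7, Ccl11 and Ccl20, and WT E was the lowest for these 4 genes and for Ccl8. Lef1 itself had the order B, C, A, E, D within Lef1KI (210, 312, 309, 139 and 166 TPM in A to E), an order that none of the 6 genes shared. The library with the least Lef1, D, was the second highest for Ccl7, Ccl8, Ccl11 and Ccl19 and the lowest for Ccl20. With 5 libraries no correlation is given, and a pooled one over both groups would only restate the group difference.

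**Figure D3:**
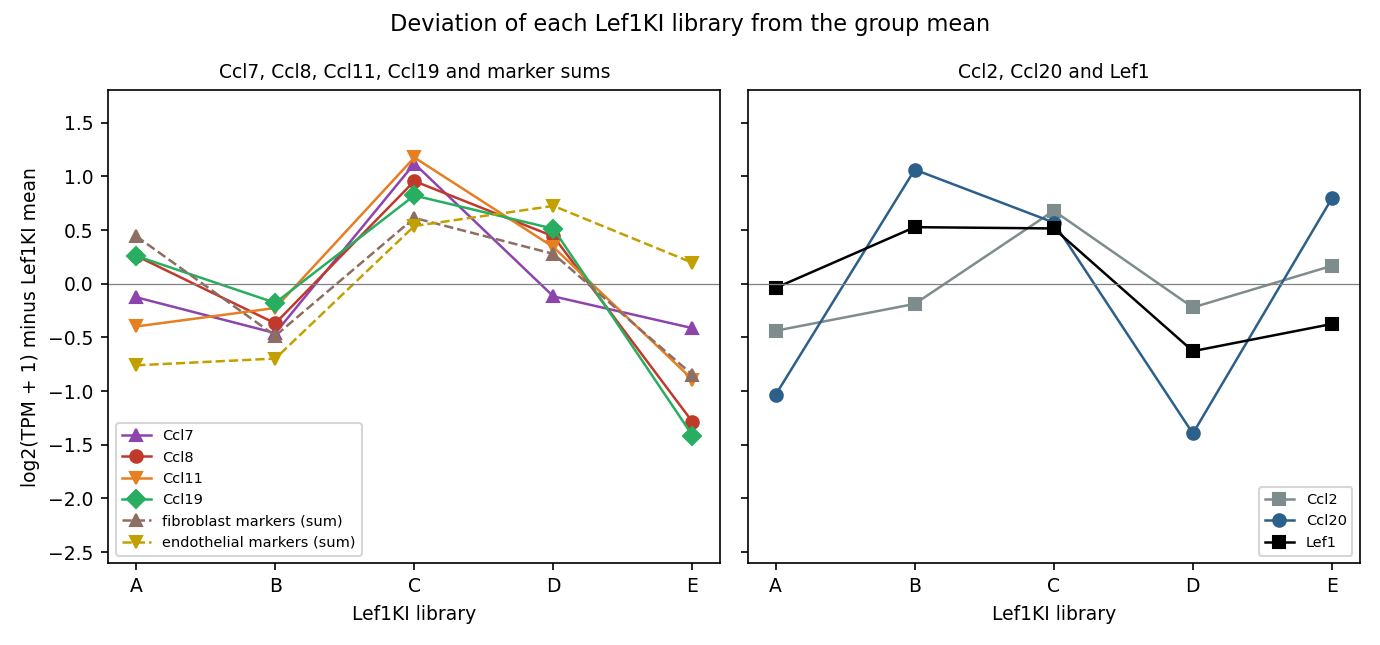
Deviation of each Lef1KI library (A to E on the horizontal axis) from the Lef1KI mean, in log2(TPM + 1) units; lines only join the points of one item, since the libraries have no order. Ccl8, Ccl11 and Ccl19 peak in C and are lowest in E like the fibroblast marker sum, while Ccl20 is highest in B and E and lowest in D.

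Fibroblast markers were higher in Lef1KI as well. In the table are 15 fibroblast markers, of which 14 rose in Lef1KI and none fell, against 7.97% of all genes called in either direction. Their summed level was 1614 to 4450 TPM in Lef1KI and 404 to 1103 TPM in WT. Of the 14, Thy1 and Postn met the 3 SD filter only in Lef1KI. Col6a3, a collagen VI chain, had 73.1 ± 29.3 TPM in Lef1KI against 8.71 ± 2.64 in WT (log2 difference 2.88, limma adjusted p 0.000378), Col1a1, a collagen I chain, 40.4 ± 17.6 against 4.97 ± 1.22 (2.71, limma adjusted p 0.000628), and the matrix gene Dpt 27.04 ± 12.4 against 3.68 ± 0.905 (2.50, limma adjusted p 0.000911). Mgp, a matrix gene, made up most of the sum, at 2263 ± 911 against 583 ± 261 TPM (1.97, limma adjusted p 0.00865). The full sum ordered the Lef1KI libraries C, A, D, B, E, which differs from the order of Ccl8 and Ccl19 in the places of A and D. Without Mgp the sum of the other 14 gave C, D, A, B, E (1289, 1058, 899, 618 and 447 TPM), the order of Ccl8 and Ccl19. Of the other marker lists without their most abundant gene, lymphoid stroma (D, C, A, B, E) and leukocyte markers (D, C, B, A, E) came close to it. Endothelial (D, C, E, A, B), basal (C, E, B, A, D) and contractile markers (C, D, B, E, A) had orders less like it. In WT the fibroblast sum without Mgp was 108, 154, 171 and 205 TPM in A, B, E and D. Of the chemokine genes, 4 were highest in WT A, Ccl8 in WT D and Ccl19 in WT B. The part of fibroblasts in the chemokine levels was not tested. In bulk libraries, more cells of a type and more RNA per cell cannot be told apart.

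Endothelial markers were higher too, at a far lower level. In the table are 11 of them, of which 7 rose and none fell, beside 6.73% and 1.24% of all genes. Several of the 7, such as Cdh5, Kdr, Plvap and Emcn, met the 3 SD filter only in Lef1KI, where they were high. The count thus includes genes that the filter let in through the higher group. The summed level of the list was 47.9 to 136 TPM in Lef1KI and 23.6 to 33.9 TPM in WT. Ramp2, a receptor activity-modifying protein gene, had 9.08 ± 2.59 against 1.35 ± 0.593 TPM (limma adjusted p 0.000765). Plvap, a gene of endothelial diaphragms, had 2.53 ± 0.818 against 0.388 ± 0.223 TPM (limma adjusted p 0.00195), and the endoglin gene Eng 15.8 ± 7.35 against 3.56 ± 0.338 TPM (limma adjusted p 0.00398). Egfl7, the most abundant of the list, had 32.7 ± 15.9 against 13.9 ± 5.82 TPM and did not pass (log2 difference 1.10, limma adjusted p 0.112), but passed once Lef1KI A was left out (1.33, limma adjusted p 0.0348) and with library weights (1.06, limma adjusted p 0.0424). Their sum was highest in Lef1KI D and C and lowest in A and B. The part of endothelial cells was not tested.

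Of leukocytes, the cells that respond to chemokines and can also make them, few markers were kept. The pan-leukocyte gene Ptprc and 8 more of the 15 markers are not in the table. Absence can come from the 3 SD filter and does not show that a gene was silent. Of the 6 that are, 3 rose and none fell: Lyz2, the lysozyme gene of myeloid cells (7.96 ± 3.37 against 1.38 ± 1.16 TPM, limma adjusted p 0.00731), Cd14, a lipopolysaccharide co-receptor gene (9.204 ± 2.02 against 4.47 ± 0.440 TPM, limma adjusted p 0.0112), and Coro1a (0.544 ± 0.160 against 0.130 ± 0.0956 TPM, limma adjusted p 0.0198). The call of Coro1a ended without WT B or WT E (limma adjusted p 0.0576 and 0.0734) and with either other scaling (0.174 and 0.132). Cd68, a lysosomal protein gene, carried most of the list's sum at 93.7 ± 82.1 against 180 ± 60.9 TPM and did not pass (limma adjusted p 0.136), but passed, as lower, once Lef1KI A was left out (log2 difference −1.59, limma adjusted p 0.00519) and with library weights (−1.42, limma adjusted p 0.0147). The sum was 70.0 to 253 TPM in Lef1KI and 115 to 264 TPM in WT, and without Cd68 it was 13.6 to 24.5 TPM in Lef1KI and 4.76 to 8.35 TPM in WT. Once Lef1KI A was left out, 5 of the 6 passed. Lyz2 and Coro1a met the 3 SD filter only in Lef1KI, where they were higher. The part of leukocytes was not tested.

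Among markers of lymphoid stroma, the tissue in which Ccl19 is best known, 4 of 9 rose and none fell, beside 6.73% and 1.24% of all genes. With median centring or trimmed-mean scaling 3 rose and 1 fell. Cxcl13 and Tnfsf13b met the 3 SD filter only in Lef1KI, where they were higher. Bst1, named after its values were seen, had the lowest difference of the list (1.67 ± 0.716 against 4.91 ± 2.49 TPM, log2 difference −1.07, limma adjusted p 0.0516). The follicular chemokine Cxcl13 had 145 ± 101 against 7.27 ± 7.45 TPM (limma adjusted p 0.00272), Tnfsf11, the RANK ligand gene, 8.56 ± 3.24 against 1.29 ± 0.453 TPM (limma adjusted p 0.00187), and Tnfsf13b, the BAFF gene, 1.08 ± 0.468 against 0.0900 ± 0.0753 TPM (limma adjusted p 0.00502). Pdpn, which basal cells also express, was the most abundant at 198 ± 50.4 against 167 ± 18.7 TPM (limma adjusted p 0.478). Ccl21a, the partner ligand of Ccl19 at Ccr7, and the markers Madcam1 and Cr2 are not in the table.

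The labelled cell type was myoepithelial, and basal cell markers were abundant in both groups. All 8 were in the table, with a sum of 20490 to 24580 TPM in Lef1KI and 15730 to 22610 TPM in WT, led by the keratin gene Krt5 (8586 ± 829.4 against 7008 ± 2442 TPM, limma adjusted p 0.325). The nerve growth factor receptor gene Ngfr was the 1 basal marker that fell (1.16 ± 0.700 against 3.41 ± 1.01 TPM, limma adjusted p 0.0305), and none rose. That call ended without Lef1KI E, WT A, WT B or WT E, at log2 differences of −1.14 to −0.93. Ngfr met the 3 SD filter only in WT, where it was higher. Of the contractile markers, Acta2 had 62.3 ± 31.2 against 129 ± 41.0 TPM (limma adjusted p 0.0834, or 0.0382 without Lef1KI C), and Actg2, Cnn1 and Oxtr are not in the table. The kinase gene Mylk was the 1 of 5 contractile markers that passed, at 2.55 ± 0.747 against 1.16 ± 0.411 TPM (higher, limma adjusted p 0.0448), and it missed the threshold with either other scaling, with the low-value filter and in 7 of the 9 fits that left out 1 library.

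The other CC chemokine ligands showed smaller differences. Of 4 in the table, 0 passed limma's threshold, and 2 had an unadjusted p under 0.05. Ccl5, a T cell and monocyte attractant, had 8.20, 19.05, 25.19, 11.32 and 7.35 TPM in Lef1KI A to E; its WT values were 3.41 TPM in A, 5.51 in B, 2.95 in D and 9.87 in E (log2 difference 1.22, SE 0.393, limma adjusted p 0.0892). Its groups overlapped, since WT E lay above Lef1KI A and E. Ccl25, known from thymus and gut, had 5.04 ± 1.90 against 2.97 ± 1.41 TPM (limma adjusted p 0.203 at a log2 difference of 0.61). Ccl27a, a skin chemokine, had 5.64 ± 1.25 against 5.12 ± 1.599 TPM, and Ccl28, a mucosal one, 0.448 ± 0.160 against 0.270 ± 0.199 TPM (limma adjusted p 0.712 and 0.343). With weights per library, Ccl5 and Ccl25 passed (limma adjusted p 0.0399 and 0.0336).

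Few chemokine receptor genes were kept, and here too an absent gene was not shown to be silent. The table holds 4 of 16 receptor genes, and Ccr2, Ccr3, Ccr6, Ccr7 and Ccr8, the known receptors of the 6 ligands, are not among them. Of the 4, 0 passed limma's threshold and 2 had an unadjusted p under 0.05. The scavenging receptor Ackr3 had 2.53 ± 1.14 against 1.24 ± 0.727 TPM (limma adjusted p 0.167 at a log2 difference of 0.65), and the chemerin-binding receptor Ccrl2 had 4.02 ± 2.74 against 2.50 ± 0.548 TPM (0.39, limma adjusted p 0.465). Ccr10, a receptor of Ccl27 and Ccl28, had 0.292 ± 0.101 against 0.103 ± 0.0781 TPM (limma adjusted p 0.135), and the scavenging receptor Ackr4, which binds Ccl19, had 0.244 ± 0.0856 against 0.138 ± 0.0585 TPM (limma adjusted p 0.344).

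**Figure D4:**
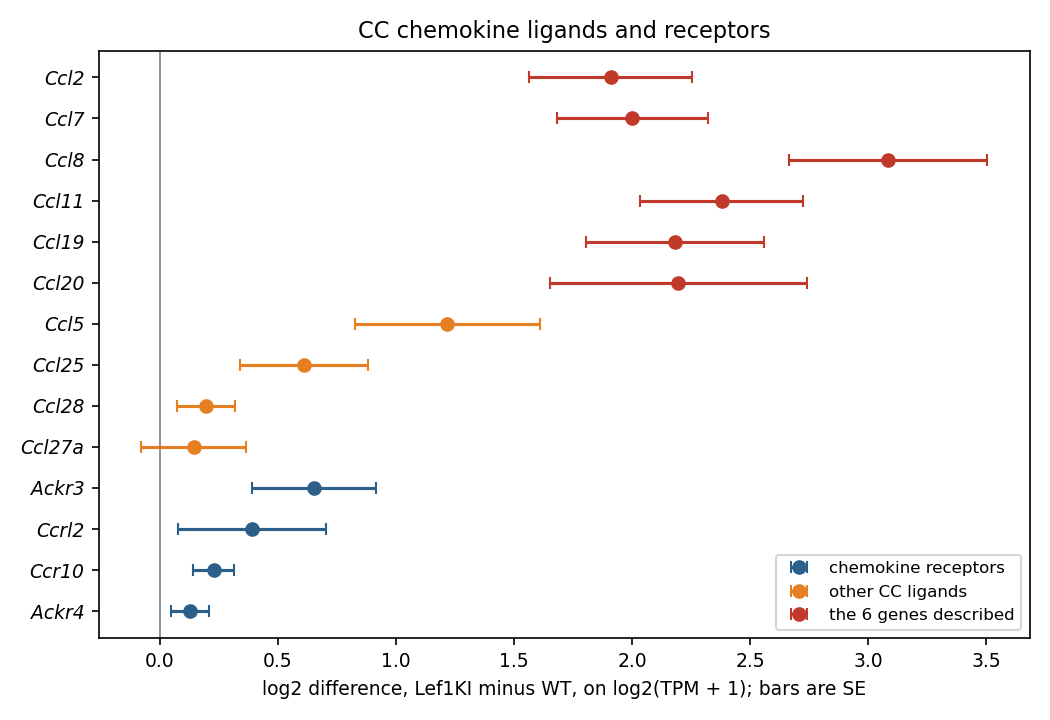
Log2 difference, Lef1KI minus WT, of the 6 genes (red), the other 4 CC ligands in the table (orange) and the 4 chemokine receptors in the table (blue), with SE as bars. The 6 genes, chosen for this difference, lie between 1.91 and 3.09, and none of the other 8 reached limma's threshold.

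Among chemokines of the other families, 2 of 11 rose and none fell, beside 6.73% and 1.24% of all genes: Cxcl13, given above, and Cxcl12, the stromal ligand of Cxcr4, at 47.7 ± 23.0 against 8.40 ± 1.39 TPM (limma adjusted p 0.00277 at a log2 difference of 2.24). The median log2 difference of the 11 was 0.50, beside 0.141 over all genes. Cxcl13 met the 3 SD filter only in Lef1KI.

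Among genes of cytokines that can induce chemokines and of their receptors, receptor genes rose in part. The table holds 23 inducing cytokines and receptors, of which 8 rose and none fell, against 7.97% of all genes called, with a median log2 difference of 0.58. The 8 were receptor genes and Il1rn, the gene of an interleukin-1 receptor antagonist. The inducing cytokine genes in the table were Tnf, Il6, Il33 and Il18, and none of them passed. Il1a and Il1b, the interleukin-1 genes, and Il17a, Ifng, Lta and Ltb are not in the table. Their absence does not show that they were silent or unchanged. Tnf and Il18 had log2 differences of −0.62 and −0.95 (limma adjusted p 0.239 and 0.184). Those of Il6 and Il33 were 1.10 and 1.31 (limma adjusted p 0.0986 and 0.0702). The interleukin-1 receptor gene Il1r1 had 9.89 ± 3.96 against 2.45 ± 0.731 TPM (limma adjusted p 0.00398 at a log2 difference of 1.61). Its co-receptor gene Il1rap had 16.6 ± 3.34 against 8.97 ± 1.08 TPM (0.81, limma adjusted p 0.0121), and the oncostatin M receptor gene Osmr had 30.6 ± 9.82 against 13.7 ± 0.781 TPM (1.05, limma adjusted p 0.016). The count depended on single libraries: it was 3 without WT B, 4 without Lef1KI C, WT A, WT E or WT D, and 5 without Lef1KI D. With each library centred on its median it was 4, and with trimmed-mean scaling 3.

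In the NF-kB pathway 7 of 27 genes rose and none fell, beside 6.73% and 1.24% of all genes. The median log2 difference was 0.37, beside 0.141 over all genes. Cebpd, a transcription factor gene of acute inflammation that was counted in this list, had 90.02 ± 16.8 against 50.9 ± 4.54 TPM (limma adjusted p 0.00591 at a log2 difference of 0.80). Ikbke, a kinase gene, had 25.0 ± 6.58 against 9.52 ± 3.22 TPM (1.31, limma adjusted p 0.00793). Nfkbie, an inhibitor gene, had 4.85 ± 1.67 against 1.6 ± 0.364 TPM (1.14, limma adjusted p 0.00808). The inhibitor genes Nfkbia (262 ± 80.2 against 277 ± 170 TPM) and Tnfaip3 (20.4 ± 5.04 against 20.3 ± 15.9 TPM) did not pass (limma adjusted p 0.954 and 0.731). The count was 3 without Lef1KI C, WT B or WT E, and 4 and 3 with the median and trimmed-mean scalings. The fibroblast markers rose in the same comparison, and their part in these counts was not tested.

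Many cytokine mRNAs are short-lived because proteins bind AU-rich stretches in their 3′ UTR. The pentamer ATTTA occurred 9 times in the longest annotated 3′ UTR of Ccl20 (1050 bases), 5 times in that of Ccl11 (644 bases), 2 times in that of Ccl7 (435 bases) and once in that of Ccl2 (275 bases). It was absent from those of Ccl8 (165 bases) and Ccl19 (263 bases). Per kilobase, Ccl20 with 8.57 stood at the 99th percentile of 11992 genes with a 3′ UTR of at least 100 bases and Ccl11 with 7.76 at the 98.6th, where the median gene had 1.38. By the plain count, which grows with length, Ccl20 stood at the 91st percentile, Ccl11 at the 76.9th, Ccl7 at the 48.2nd and Ccl2 at the 29.5th. At least 1 pentamer occurred in 70.5% of genes, and the 3′ UTRs of Ccl8 and Ccl19 are short beside the median of 1195 bases. Of 11 genes listed for the control of such mRNAs 0 passed limma's threshold, and 2 had an unadjusted p under 0.05. The list was not split by whether a protein shortens or lengthens the life of an mRNA. Without Lef1KI A the number that passed was 2. Their median log2 difference was 0.09.

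**Figure D5:**
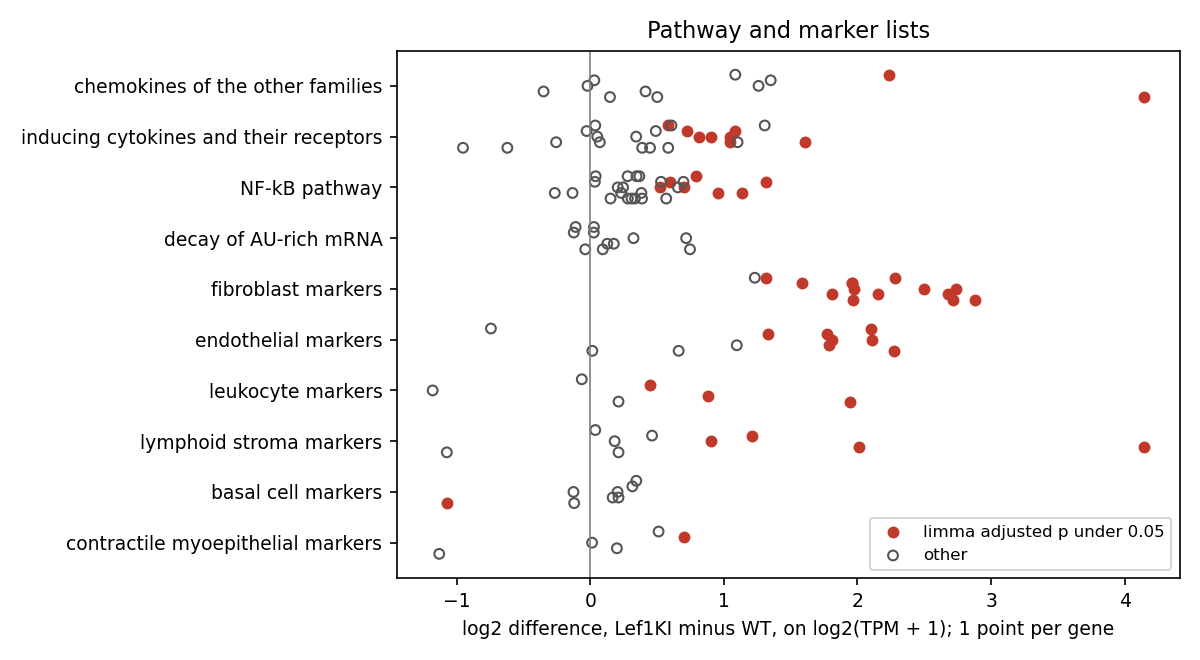
Log2 difference, Lef1KI minus WT, of each gene (1 point) in the pathway and marker lists named on the vertical axis; filled red points passed limma's adjusted p of 0.05. Fibroblast markers lie between 1.23 and 2.88, and the list labelled decay of AU-rich mRNA has no filled point.

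The genes whose pattern over all 9 libraries was most like each chemokine were found by the root mean square difference of log2 values, each gene centred on its own mean, among 11280 candidates. This likeness contains the group difference that chose the chemokines and is a description. For Ccl8 they were the serpin gene Serpina3g (0.283 log2 units), the matrix gene Sparcl1 (0.311) and the collagen gene Col6a3 (0.319), where the median candidate was 1.62 away. For Ccl19 they were Cxcl12 (0.234), Olfml1 (0.259) and Serpina3c (0.277), and for Ccl11 Dpep1 (0.209), Sepp1, the selenoprotein P gene (0.227), and Slfn5 (0.246). Ccl7 was nearest to Nr1h3, the liver X receptor alpha gene (0.215), Iigp1, an interferon-inducible GTPase gene (0.255), and Pla1a (0.272). Ccl2 had no neighbour as close: Emp3 (0.401), Dpysl3 (0.402) and the thrombospondin gene Thbs2 (0.422) came first. Ccl20 stood farthest from its neighbours, Basp1 (0.425), Csf3, the granulocyte colony-stimulating factor gene (0.458), and the neutrophil chemokine Cxcl2 (0.619). The collagen gene Col6a3 among these neighbours also belongs to the fibroblast list.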

How the data were processed

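RNA was sequenced from 9 stranded mRNA libraries of sorted cells. RSEM and the mm10 build are named in the submitters' processing notes. Their versions, the aligner and the annotation are not given. The deposited log2 values are log2(TPM + 1): with the log undone, values below 50 TPM fell on whole hundredths (within 0.01 of one), and library totals were 99.6% to 99.84% of the full TPM total. TPM keeps no read counts, so depth and counting error are unknown; between 11465 and 12135 genes reached 1 TPM per library. The authors' group mean and SD columns, also log2, were not used in tests. Every deposited gene had a mean of at least 3 SD in one of the groups (lowest 3.002). Columns carry letters that match no replicate number, so they were assigned to groups only. Each library is a separate pool, so p-values measure the spread between pools.

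The fit used limma 3.58.1 under R 4.3.3 (lmFit, eBayes with an intensity trend) on all 13336 genes, with group as the only term and no further filter; two-sided p-values were adjusted by Benjamini-Hochberg over all genes, and a gene rose or fell at an adjusted p under 0.05. The procedure was tested on simulated data. Differences are Lef1KI minus WT. The 6 genes, the gene lists and the tests were chosen with earlier results of these data known. Beside the 6 genes and Lef1, the text names every CC ligand and receptor in the table, up to 3 genes per direction with the smallest adjusted p of each other list, the most abundant gene of each marker list and the 3 most similar genes per chemokine (at least 1 TPM in one group). Gm2564 and the marker and cytokine genes absent from the table were named afterwards. So were Bst1, Tnf, Il6, Il33, Il18, Il1rn, Nfkbia, Tnfaip3 and the genes named only for meeting the 3 SD filter in 1 group. Positions and transcripts are from GENCODE M21; 3′ UTRs are the longest annotated per gene. Coding sequences were aligned with Biopython 1.88 and copies sought with BLAST+ 2.17.0. RefSeq upstream sequence (GRCm38.p6) was matched by symbol for Ccl8, Ccl19 and Ccl20, that is for 3 of the 6 genes. Alternatives were 2 scalings (median centring; a mean trimmed by 30% at each end), a pseudocount of 0.1, a filter at 1 TPM, no intensity trend, library weights, a block on column letters, and leaving out each library; Ccl19 summed with its copy was added after seeing the data.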

Additional observations from a re-analysis of the deposited data

Results flagged for a closer look

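A library that stood apart from the rest of its group, by the ratio of its gap to the group's range (Dixon's test at the 95% level), was found in 8 of 84 groups examined; chance flags about 1 in 20. For 2 of the 6 chemokine genes this was so: Ccl7 in Lef1KI C had 78.17 TPM where the other Lef1KI libraries had 25.50 to 32.60, and Ccl19 in WT B had 1.03 TPM where the others had 0.68 to 0.71. Ccl28 in Lef1KI D had 0.73 TPM against 0.34 to 0.41 in the others, and Ccrl2 in WT B 1.69 TPM against 2.66 to 2.83. Cxcl13 in WT A had 18.42 TPM against 3.22 to 4.21. Il1rap in Lef1KI C had 22.46 TPM against 13.90 to 15.94. Col6a3 in WT D had 12.66 TPM against 7.21 to 7.62, and Plvap in WT A 0.72 TPM against 0.25 to 0.31.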

How the results depend on the processing

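The log2 differences of the 6 chemokine genes stayed positive in every alternative run. Leaving out single libraries gave 1.68 to 2.26 for Ccl2, 1.72 to 2.17 for Ccl7, 2.85 to 3.41 for Ccl8, 2.09 to 2.60 for Ccl11, 1.98 to 2.54 for Ccl19 and 1.93 to 2.55 for Ccl20. They moved by more than the spread between libraries only for Ccl11 and Ccl19 at a pseudocount of 0.1 (3.894 and 3.003). The count of changed genes was 2334 with library weights, 486 with the replicate block and 628 (without WT E), 643 (without WT B) to 1686 (without Lef1KI A) leaving out single libraries; the share of higher among changed genes went from 898 of 1063 to 605 of 937 with median centring and 612 of 918 with trimmed means. With library weights 2 other CC ligands, 5 chemokines of other families, 5 leukocyte and 2 basal markers passed. Inducing cytokines and receptors gave 4 (median centring), 3 (trimmed means) and 2 (replicate block), and 3 to 8 without single libraries; the NF-kB list gave 4, 3 and 3, and 3 to 10. Leaving out single libraries gave 0 to 2 for the AU-rich mRNA list. Among markers it gave 2 to 5 for leukocyte, 0 to 1 for basal and 0 to 1 for contractile ones. Basal markers gave 0 at a pseudocount of 0.1 and with the replicate block; contractile markers gave 0 with both scalings, the low-value filter and the replicate block; leukocyte markers gave 1 with the block. Ccl27a reversed to −0.016 and −0.005 with the scalings and −0.063 without WT B, and Ackr4 to −0.032 and −0.021. The lymphoid stroma list had 3 higher and 1 lower with both scalings, and 1 lower at a pseudocount of 0.1, with library weights and without Lef1KI C or WT A. The cause of these changes was not tested. The replicate block used column letters, which no label ties to shared mice. It left out Lef1KI C, since no WT library carries that letter, so it also differs from the main fit by that library. Without Lef1KI C and with no block, 757 genes changed. Libraries sharing a letter had deviations correlated at −0.26 (A), 0.02 (B), −0.15 (E) and 0.26 (D). Only WT D correlated best with the Lef1KI library of its own letter. With so few libraries these values do not settle whether the letters mark pairs. Depth is unknown, so counting error at low values could not be judged. Values near 0 TPM also rest on the pseudocount.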
